A study of Homo sapiens with 18 samples.

Results

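MCF10A cells kept for 21 h in 2D were compared with the same cells kept in 3D, using the libraries labelled timepoint 3. MCF10A is an established, non-malignant human breast epithelial line with basal features. The comparison takes 6 of the 18 libraries of the series, 3 in 2D and 3 in 3D, chosen by culture and timepoint from the sample titles and paired by replicate number. All cells were plated sparsely on compliant polyacrylamide gels that carried 50 µg/ml Matrigel, a laminin-rich basement membrane extract. Both cultures used DMEM/F12 medium with 5% horse serum, 20 ng/ml EGF, 10 µg/ml insulin, 100 ng/ml cholera toxin and 0.5 mg/ml hydrocortisone. Unattached cells were removed after 1 h. The 2D cells then received fresh medium, and the 3D cells received medium with 2% Matrigel, which sets around each cell. The 3 timepoints are matched to harvests at 3, 12 and 21 h only by their order. Because both arms sat on a Matrigel-coated gel, the contrast is of matrix around the cell and not of matrix against none. It covers 1 cell line, and the labels do not say whether the replicates were separate cultures, so a p-value here reflects only how much these libraries vary, which may be technical.

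Eukaryotic cells under amino acid shortage, unfolded protein in the endoplasmic reticulum (ER) or other stresses phosphorylate the translation factor eIF2α. This slows most translation, favours translation of the transcription factor ATF4, and ATF4 and its partner CHOP (encoded by DDIT3) then switch on genes for amino acid supply, redox balance and cell death. In this integrated stress response (ISR), the branch through the ER kinase PERK is also 1 arm of the unfolded protein response. The IRE1-XBP1 and ATF6 arms beside it raise ER chaperones and the degradation machinery. Breast epithelial cells also carry junction and keratin programmes that change with attachment to matrix and to neighbours, and they enter the cell cycle in response to growth factors and matrix.

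The library labelled 2D timepoint 3 replicate 1 stood apart from the other 2D libraries. Its correlation with the 3D library of the same date, over log2 CPM (counts scaled to library size) of the genes tested, was 0.9952. With 2D replicates 2 and 3 it was 0.9777 and 0.9847, while those 2 libraries correlated with each other at 0.9922. On the first principal component of all 18 libraries it lay at 17.9, between the other 2D libraries of timepoint 3 (-6 and 7.4) and the 3D libraries (25 to 38). Its labels name the raw count table alone, and it is not in the authors' log2 CPM table. It is therefore left out of the fit reported here, which uses 17 libraries. The value with all 18 is given beside many of the lists and some of the genes. Of 170 named genes called with 17 libraries, 108 stayed called with all 18. Why it stands apart was not tested.

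**Figure D1:**
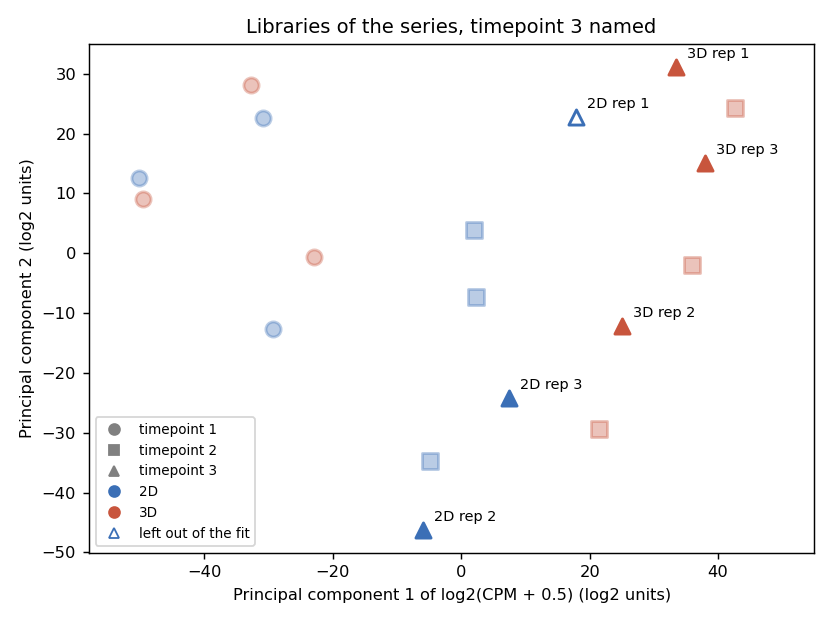
Principal components 1 and 2 of log2(CPM + 0.5) for the 18 libraries, with the 6 libraries of timepoint 3 named, 2D in blue and 3D in red. The open triangle, 2D replicate 1 (17.9 on component 1), lies to the right of 2D replicates 2 and 3 (-6 and 7.4) and to the left of the 3D libraries (25 to 38).

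Count sums at timepoint 3 were 49951892 to 77772751 per library and were 5.29 to 5.6 times the totals in the file headers where one is given, so a count is not 1 read and no counting interval is given. The share of counts from mitochondrially encoded genes was 0.589 to 0.783% in 2D against 0.398 to 0.533% in 3D, without overlap. The markers of basal breast epithelium summed to 6097 to 10480 CPM in 2D against 5050 to 8015 CPM in 3D. Of the basal markers, KRT5 was at 3232, 5360.5 and 6301 CPM in 2D against 2766, 4363 and 5217 CPM in 3D, and TP63 at 51.5, 57.3 and 62.6 against 40.4, 58.2 and 54.0 CPM. Markers of endothelium (2.04 to 3.44 CPM over both cultures) and adipocytes (0.694 to 1.67 CPM) were near 0. Fibroblast markers summed to 151.1 to 290.9 CPM in 2D against 154.1 to 260.6 CPM in 3D, nearly all of it DCN (148.7 to 287.6 CPM over both cultures), while COL1A2, COL3A1 and PDGFRA were at 0 in all 6 libraries. Immune markers summed to 28.06 to 39.66 CPM in 2D and to 21.0 to 28.16 CPM in 3D. CD68 was at 15.44 to 20.52 CPM over both cultures, and CD3E and LYZ were at 0. In a bulk sample, fewer cells of a kind and less RNA per cell cannot be told apart.

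At timepoint 3, 1813 of 18592 genes tested were called (9.75%), 827 higher in 3D (4.45%) and 986 lower (5.3%), at an adjusted p under 0.05 (edgeR quasi-likelihood F test with the date as a block, Benjamini-Hochberg). A change of at least 2-fold was seen for 167 of the higher (0.898% of genes tested) and 386 of the lower genes (2.08%). The lower genes included much of the ATF4 and CHOP programme, the FOS and JUN family, tight junctions, desmosomes and squamous differentiation genes. The higher genes included DNA replication and mitosis genes and proteasome subunits. The median log2 fold change over all genes tested was 0.01.

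**Figure D2:**
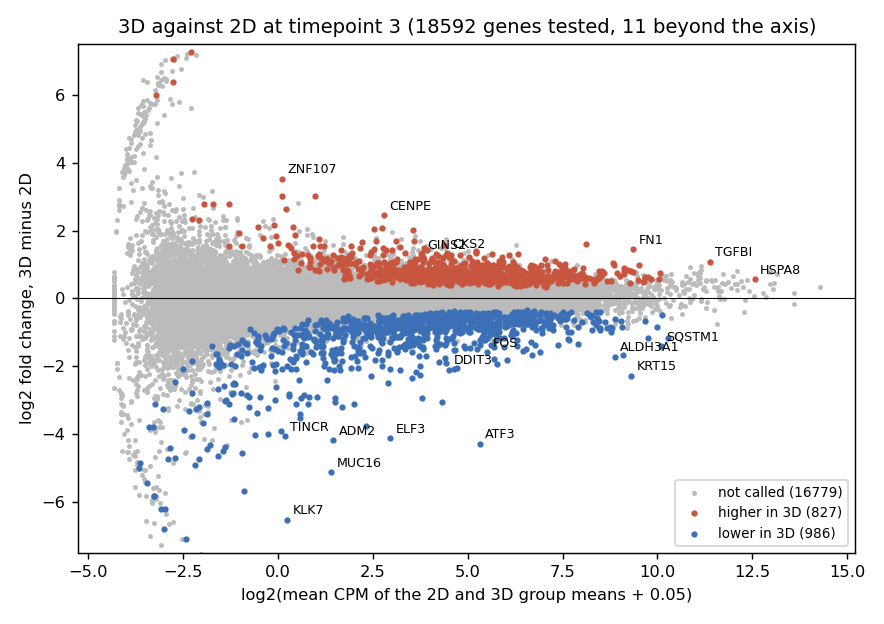
Log2 fold change (3D minus 2D) at timepoint 3 against log2 mean CPM for 18592 genes, with the 827 genes higher in 3D in red and the 986 lower in blue. Of the genes named in it, MUC16 lies at -5.13, ATF3 at -4.29, ADM2 at -4.18 and ELF3 at -4.12. The axis leaves out 11 genes.

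With all 18 libraries and the same block, 1052 of 18111 genes were called (5.81%), 449 higher (2.48%) and 603 lower (3.33%). Without the date block, 278 genes (1.5%) were called in the 17 libraries, 43 higher (0.231%) and 235 lower (1.26%). With all 18 libraries and no block edgeR called 0 genes, although 1942 had an unadjusted p under 0.05. Leaving out 2D replicate 2 left 321 calls and leaving out 2D replicate 3 left 456, against 1241, 1068 and 856 without 3D replicates 1, 2 and 3. The size of a date's difference was uneven. Among the 986 lower genes the median of 3D minus 2D on the log2 scale was -0.3, -0.83 and -0.9 in the pairs of replicates 1, 2 and 3, and among the 827 higher genes 0.28, 0.71 and 0.75. Replicate 1 gave the direction of the call for 825 of the lower genes (83.7%) and 791 of the higher genes (95.6%). At timepoint 2, whose libraries entered the selection only through the shared spread and date terms of the fit, the same pairs gave medians of -0.71, -0.41 and -0.46 for the lower genes and 0.66, 0.47 and 0.63 for the higher genes. Over the 5 fitted libraries, 18.9% of all genes tested lay wholly higher in 3D and 20.2% wholly lower, and over all 6 libraries 7.11% and 7.67%. Of the called genes, 730 of the higher and 946 of the lower did not overlap over the 5 libraries that chose them, and 233 and 331 did not over all 6. Replicate 1 had the smallest median difference at timepoint 3 and the largest at timepoint 2.

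The targets of ATF4 and CHOP were lower in 3D. Of 35 tested, 21 were lower and 0 higher, with a median log2 fold change of -1.40 against 0.01 over all genes. This and the other lists were chosen with earlier results of these data known, so their directions are descriptions. With all 18 libraries 17 were lower, without the date block 16, and with 1 timepoint 3 library left out 16 to 20. ATF3, a stress-induced repressor and activator of the same family, was at 80.2 and 71.6 CPM in 2D replicates 2 and 3 and at 3.72, 3.58 and 3.27 CPM in the 3 3D libraries. The library labelled 2D replicate 1 held 2.94 CPM, below all 3D libraries. ATF3 was 19.5-fold lower in 3D, a log2 fold change of -4.29 ± 0.31 (SE) (adjusted p = 1.41e-05), and -3.58 (adjusted p = 0.0189) with all 18 libraries.

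DDIT3, which encodes CHOP, was at 39.1 and 33.9 CPM in 2D replicates 2 and 3, at 9.31 CPM in replicate 1 and at 8.85, 7.74 and 9.59 CPM in 3D. Replicate 1 again lay among the 3D libraries, and the other 2D libraries lay above them (4.29-fold in the fit), a log2 fold change of -2.10 ± 0.18 (SE) (adjusted p = 3.59e-05; -1.62 and 0.0239 with all 18). PPP1R15A (GADD34), the phosphatase subunit that reverses eIF2α phosphorylation, stood at 22.6 and 18.1 against 4.13, 4.28 and 4.42 CPM, with 4.92 CPM in 2D replicate 1, and its log2 fold change was -2.18 ± 0.23 (SE). CHAC1, a glutathione-degrading enzyme, went from 11.3 and 7.23 CPM in 2D to 0.515, 0.765 and 0.641 CPM in 3D, with 2D replicate 1 at 1.11 CPM. ADM2, a secreted peptide of the calcitonin family, was at 5.56 and 4.76 CPM in the 2 fitted 2D libraries and at 0.223, 0.2496 and 0.279 CPM in 3D. For these 3 genes the fitted 2D libraries lay above every 3D library, and 2D replicate 1 lay above the 3D libraries for CHAC1 and PPP1R15A and below them for ADM2. Their differences passed the test with all 18 libraries as well (adjusted p = 0.0201 for PPP1R15A, 0.0189 for CHAC1 and 0.0196 for ADM2).

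The glycine transporter SLC6A9 was at 47.5 and 38.1 CPM in 2D against 7.36, 12.5 and 8.32 CPM in 3D, a log2 fold change of -2.06 ± 0.20 (SE). SESN2, a sestrin that restrains mTORC1, was at 11.2 and 11.5 against 3.13, 4.28 and 3.34 CPM, and 2D replicate 1, at 4.73 CPM, also lay above the 3D libraries. PCK2, the mitochondrial phosphoenolpyruvate carboxykinase, had 123 and 139 CPM in 2D against 35.6, 47.9 and 49.2 CPM in 3D, with 38.3 CPM in 2D replicate 1. SLC6A9, SESN2 and PCK2 stayed called with all 18 libraries. Other members called lower were GDF15, BBC3, STC2, SLC1A4, NUPR1, TRIB3, SLC3A2, CEBPB and CEBPG, with log2 fold changes from -2.50 (GDF15) to -0.52 (CEBPG). Members that did not pass included the cystine transporter SLC7A11 (0.11), the ER oxidase ERO1A (0.25), the factor ATF5 (-0.08) and DDIT4 (-0.42). CBS (-1.94), VLDLR (-1.58) and the tRNA exporter XPOT (0.01) did not pass either, and 32 of the 35 members lay below 0.

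**Figure D3:**
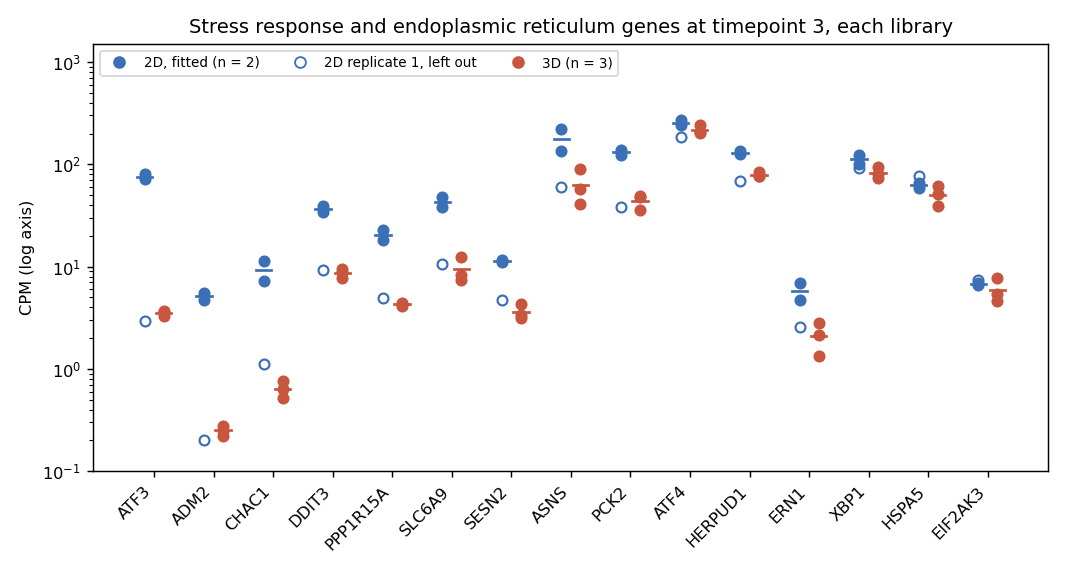
CPM on a log axis of 15 stress response and ER genes in each timepoint 3 library, 2D in blue and 3D in red, with bars at the means of the fitted libraries. ATF3, ADM2, CHAC1, DDIT3 and PPP1R15A separate the fitted 2D libraries from 3D, the open circle of 2D replicate 1 (2.94 CPM for ATF3) lies near 3D, and ATF4, HSPA5 and EIF2AK3 lie close together.

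The promoters of 3 called members hold the core of the composite element that C/EBP and ATF factors bind. They are shown because they hold it, and called members without a match are not shown. Each line gives 250 bases upstream of the RefSeq transcript start (GRCh38.p14), 5′ to 3′ on the gene's strand, with the match to TGATGNAA on either strand in capitals. They lie at chr1:212565157-212565406 (+) for ATF3, chr7:97872409-97872658 (-) for ASNS and chr15:40953221-40953470 (+) for CHAC1.
ATF3: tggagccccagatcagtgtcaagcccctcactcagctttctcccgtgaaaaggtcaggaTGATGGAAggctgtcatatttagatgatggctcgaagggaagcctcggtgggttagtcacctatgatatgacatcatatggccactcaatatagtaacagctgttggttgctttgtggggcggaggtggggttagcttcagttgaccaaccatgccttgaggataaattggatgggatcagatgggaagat
ASNS: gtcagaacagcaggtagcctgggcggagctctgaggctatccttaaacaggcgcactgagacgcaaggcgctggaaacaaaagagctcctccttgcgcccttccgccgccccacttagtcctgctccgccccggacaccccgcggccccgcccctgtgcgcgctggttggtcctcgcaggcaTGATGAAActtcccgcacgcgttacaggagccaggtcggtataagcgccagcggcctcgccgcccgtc
CHAC1: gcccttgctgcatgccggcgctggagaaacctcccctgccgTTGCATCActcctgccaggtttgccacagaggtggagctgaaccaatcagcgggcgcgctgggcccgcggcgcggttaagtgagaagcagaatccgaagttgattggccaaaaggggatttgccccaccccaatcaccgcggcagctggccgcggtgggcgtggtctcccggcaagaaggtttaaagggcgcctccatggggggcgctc
The first base of the match lies 191, 68 and 209 bases upstream of the start. The RefSeq start lies 48029 bases from the start of the deposited gene model for ATF3, 134 bases for ASNS and 735 bases for CHAC1, so other transcripts of these genes have other promoters. The motif was found in 3 of 18 called members with a promoter in the table (16.7%), in 0 of 13 members not called, and in 1.54% of the 12230 promoters of genes tested. A match is a run of letters and not shown to be bound.

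The regulators of the ISR themselves were mostly not called. Of 13 eIF2α kinases, phosphatase subunits and eIF2B subunits with ATF4, PPP1R15A alone passed, and the median was 0.00. ATF4 mRNA was at 184, 239.9 and 271 CPM in 2D against 205, 204 and 245 CPM in 3D, which overlap, with a log2 fold change of -0.18 ± 0.22 (SE) (adjusted p = 0.633). EIF2AK3, which encodes the ER kinase PERK, was at 7.41, 6.67 and 6.98 against 7.73, 5.38 and 4.58 CPM, also overlapping (adjusted p = 0.378). ATF4 activity is set largely by translation, which these data do not measure.

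Enzymes of serine, asparagine and one-carbon metabolism showed 5 members lower and 1 higher of 16 (median -0.21), and 1 lower and 1 higher with all 18 libraries. ASNS, the asparagine synthetase, was at 60.0, 135 and 220.2 CPM in 2D against 57.0, 40.9 and 90.4 CPM in 3D. Its fitted 2D libraries lay above all 3D libraries, while replicate 1 lay inside their range, and its log2 fold change was -1.57 ± 0.18 (SE) (adjusted p = 0.000233; 0.0371 with all 18). PHGDH, the first enzyme of serine synthesis, had a log2 fold change of -0.95 ± 0.19 (SE) (adjusted p = 0.00659) and lost its call with all 18 libraries (adjusted p = 0.186). MTHFD2L, a mitochondrial folate enzyme, was the member higher in 3D (11.4 and 13.4 CPM for 2D, 22.4, 18.1 and 21.5 CPM for 3D). The list kept 1 or 2 lower members without 2D replicate 3 or 2 and 4 without any 1 of the 3D libraries. Of 20 cytosolic aminoacyl-tRNA synthetases, 4 (CARS1, WARS1, AARS1 and MARS1) were lower and FARSB was higher, and 0 were called with all 18 libraries or without the block.

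ER chaperones did not move as a group. Of 31 ER sensors, chaperones and degradation factors, 3 were lower and 1 higher, with a median of -0.03 and, with all 18 libraries, 1 lower and 1 higher. HSPA5 (BiP), the main ER chaperone, was at 77.6, 65.7 and 58.6 CPM in 2D against 60.9, 51.2 and 38.8 CPM in 3D, which missed the threshold (-0.40 ± 0.22 (SE), adjusted p = 0.269). ERN1, which encodes the sensor IRE1, was at 2.58, 6.85 and 4.75 CPM in 2D against 2.13, 2.81 and 1.32 CPM in 3D, overlapping only through 2D replicate 1. ERN1 was lower by -1.39 ± 0.26 (SE) on the log2 scale (adjusted p = 0.00469; 0.0269 with all 18 libraries and 0.120 without the block). XBP1, the factor that IRE1 splices, and HERPUD1, a degradation factor, were lower by -0.52 ± 0.13 (SE) and -0.75 ± 0.13 (SE), and both lost the call with all 18 libraries (adjusted p = 0.128 and 0.152). MANF, a secreted ER protein, was higher (51.5 and 74.8 CPM in 2D against 107, 81.0 and 103 CPM in 3D, adjusted p = 0.0410), and lost the call without the block and without each of the 5 fitted libraries in turn. With timepoint 3 fitted alone 7 members of the list were lower and 1 was higher. DERL3 had a fitted log2 fold change of 5.72 at very low counts and did not pass.

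Genes of the translocon, N-glycosylation and COPII coats had 5 of 35 members higher and 0 lower (median 0.12), and 2 higher with all 18 libraries. SSR3, a translocon-associated subunit, was at 149, 60.3 and 90.7 CPM in 2D against 185, 113 and 143 CPM in 3D, with only 2D replicate 1 inside the 3D range. Its log2 fold change was 0.84 ± 0.14 (SE) (adjusted p = 0.00263). SEC61G, a subunit of the translocon channel, was higher by 0.82 ± 0.19 (SE), while SEC61A1, its pore subunit, was at -0.20 and did not pass. Leaving out 2D replicate 2 removed all 5 calls, and leaving out 2D replicate 3 or 3D replicate 2 left 1.

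The list of FOS and JUN genes, which encode subunits of the AP-1 transcription factor, also held ATF3, BATF2, BATF3 and the small MAF genes. Of its 13 tested members 9 were lower in 3D and 0 higher (median -0.89). ATF3 was among the 9 and is also counted among the ATF4 and CHOP targets. Over all 18 libraries 6 were lower, without the block 5 and without 2D replicate 2 also 5. FOSB was at 3.50, 39.2 and 32.8 CPM in 2D against 2.73, 4.66 and 3.86 CPM in 3D. Its fitted 2D libraries lay above every 3D library, replicate 1 lay among the 3D libraries, and the log2 fold change was -3.05 ± 0.21 (SE) (adjusted p = 1.41e-05). FOS was at 19.8, 78.8 and 61.0 against 16.3, 27.1 and 21.7 CPM, again without overlap outside replicate 1 (-1.58 ± 0.13 (SE), adjusted p = 3.59e-05). JUND, JUN, FOSL2 and the small MAF genes MAFF, MAFG and MAFK were lower by -1.53, -1.71, -0.99, -0.89, -0.75 and -0.65. FOSL1 (0.06) and JUNB (-0.19), also AP-1 subunits, did not pass.

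Of 27 further immediate early genes, 8 were lower and 0 higher (median -0.48), and 6 with all 18 libraries. KLF4, a factor of epithelial differentiation, was at 4.87, 21.8 and 16.8 CPM in 2D against 4.34, 3.10 and 3.29 CPM in 3D. It was lower in every 3D library than in any 2D library, by -2.35 ± 0.26 (SE) (adjusted p = 0.00019; 0.0180 with all 18). KLF2, KLF6, the orphan nuclear receptors NR4A1 and NR4A2, ZFP36, BTG2 and IER5 were the others lower, from -2.83 (KLF2) to -0.44 (IER5). EGR1, the usual first responder to growth factor signalling, was at -0.30 and MYC at -0.25, and neither passed.

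The EGF in the medium acts through ERK, a MAP kinase. Of 20 MAP kinase phosphatases, Sprouty and other feedback genes, 5 were lower and 0 higher (median -0.21). With all 18 libraries 3 were lower, and without the block 2. The 5 were DUSP1, DUSP8, DUSP10, DUSP16 and ERRFI1. DUSP8 and DUSP10, phosphatases that act on JNK and p38, were lower by -3.51 ± 0.41 (SE) and -2.00 ± 0.27 (SE). DUSP10 stood at 5.18, 25.1 and 17.8 CPM in 2D against 5.76, 5.36 and 5.17 CPM in 3D, where 2D replicate 1 lay within the 3D range. The ERK phosphatase DUSP6 (0.03), ETV5 (0.03) and SPRY4 (0.25) did not pass. Of 15 EGF family ligands and receptors, 4 were lower, with 2 left without 2D replicate 2 or 3 or 3D replicate 2 or 3, and 1 without the block. NRG2, an ERBB ligand, was at 0.667, 2.67 and 2.19 CPM in 2D against 0.320, 0.516 and 0.460 CPM in 3D with no overlap in any library. NRG2 was lower by -2.41 ± 0.25 (SE) in the edgeR fit (adjusted p = 0.000172) and stayed called with all 18 libraries. ERBB3, its receptor family member, was lower by -1.28 ± 0.21 (SE), and EGFR did not pass (-0.12 ± 0.23 (SE), adjusted p = 0.798).

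Among 24 p53 targets, 10 were lower and 0 higher (median -0.35), 6 with all 18 libraries and 4 to 8 with 1 library left out, the fewest without 2D replicate 2 or 3. Several of these genes are also ATF4 or CHOP targets, so the lists share members. BBC3 (PUMA), a death-promoting BCL2 protein, was at 3.25, 17.1 and 13.1 CPM in 2D against 2.65, 4.41 and 3.33 CPM in 3D. CDKN1A, the p21 cell cycle inhibitor, was at 124, 263 and 267 CPM in 2D against 120.2, 136 and 139.6 CPM in 3D. In both genes replicate 1 lay inside the 3D range and the other 2D libraries above it, and the log2 fold changes were -2.11 ± 0.22 (SE) and -1.002 ± 0.15 (SE) (adjusted p = 0.000172 and 0.00126); CDKN1A lost its call with all 18 libraries (adjusted p = 0.0624). MDM2 (-0.13), BAX (-0.14), FAS (0.34) and GADD45A (0.19), also p53 targets, did not pass. Of 18 BCL2 family genes, BBC3, HRK, PMAIP1 and BCL2L11, all BH3-only death promoters, were lower and BCL2L12 was higher (0.73 ± 0.12 (SE)); 2 stayed lower without 2D replicate 2 or 3 and without 3D replicate 2 or 3.

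Interferon response and MHC class I genes had 10 of 39 members lower and 0 higher (median -0.39). In all 18 libraries or without the block 4 were lower, without 2D replicate 2 there were 2, without 2D replicate 3 there were 5 and without 3D replicate 2 there were 6. HLA-B, a classical class I heavy chain, was at 48.2, 85.8 and 81.9 CPM in 2D against 43.9, 48.2 and 48.8 CPM in 3D. The fitted 2D libraries lay above the 3D libraries by -0.81 ± 0.12 (SE) on the log2 scale (adjusted p = 0.00112). The factors IRF7, IRF9 and IRF1 were lower by -1.39, -1.10 and -1.03, whereas B2M (0.31) did not pass. Class I genes of the HLA family are near-identical copies, and their shares of reads are uncertain. Of 31 cytokines and NF-kB targets, 8 were lower and IL18 was higher, with 5 lower with all 18 libraries or without 2D replicate 3, 3 without the block and 1 without 2D replicate 2. IL1RN, the interleukin 1 receptor antagonist, was at 1.43, 5.19 and 7.34 CPM in 2D against 1.10, 1.16 and 1.64 CPM in 3D (-2.04 ± 0.27 (SE)). TNFAIP3 (A20), an NF-kB inhibitor, was lower by -1.38 ± 0.25 (SE), and IL6 (-0.70), CXCL8 (-0.35) and IL1B (0.70) did not pass.

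**Figure D4:**
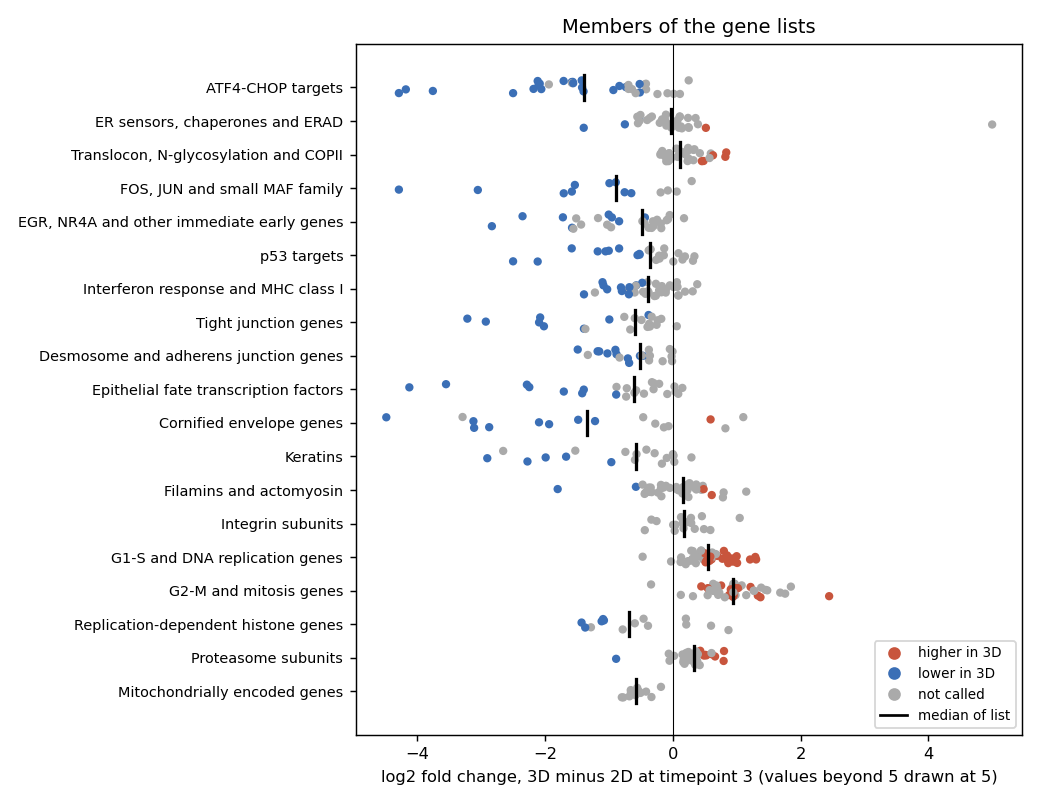
Log2 fold change (3D minus 2D) at timepoint 3 of each tested member of 19 gene lists, red where higher, blue where lower, grey where not called, with a bar at each list's median. The medians of the ATF4-CHOP targets (-1.40) and cornified envelope genes (-1.35) lie lowest and those of the G2-M genes (0.94) and G1-S genes (0.55) highest.

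Tight junction genes were lower in 3D, with 8 of 21 lower and 0 higher (median -0.59), 8 with all 18 libraries, 6 without the block and 5 without 2D replicate 2. CLDN7, a claudin of the epithelial barrier, was at 40.3, 108 and 123 CPM in 2D against 37.0, 42.6 and 47.4 CPM in 3D. Only replicate 1 of 2D lay within the 3D range, and the log2 fold change was -1.39 ± 0.11 (SE) (adjusted p = 2.96e-05; 0.0241 with all 18). CLDN4, also a claudin, was at 0.138, 3.21 and 8.42 against 0.278, 0.399 and 0.836 CPM, and CLDN1 at 0.805, 3.35 and 4.78 against 0.849, 0.782 and 1.07 CPM. In both, the fitted 2D libraries lay above every 3D library, and 2D replicate 1 lay below the 3D values for CLDN4 and among them for CLDN1. TJP3 (ZO-3), a junction scaffold, was lower by -2.93 ± 0.38 (SE), while its relative TJP1 (-0.24) did not pass. The other members lower were OCLN, CGN, CRB3 and PARD3.

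Of 21 desmosome and adherens junction genes, 10 were lower and 0 higher (median -0.51), and 8 with all 18 libraries. PPL (periplakin), which links desmosomes to the cornified envelope, was at 40.7, 164 and 118 CPM in 2D against 25.3, 60.3 and 48.7 CPM in 3D. PPL was lower by -1.49 ± 0.20 (SE) in the edgeR fit (adjusted p = 0.000695) and stayed called with all 18 libraries. CDH1, which encodes E-cadherin, was at 62.6, 109 and 106 CPM in 2D against 42.5, 58.2 and 37.3 CPM in 3D. All 3 2D libraries lay above all 3D libraries for CDH1, whose log2 fold change was -1.02 ± 0.24 (SE) (adjusted p = 0.0167, 0.0224 with all 18 libraries and 0.0950 without the block). DSG3, DSC2, EVPL, JUP, CDH3, PERP, DSP and PKP3 were the others lower, and the catenins CTNNA1, CTNNB1 and CTNND1 lay between -0.16 and 0.00 and did not pass. Without the block 2 members were lower, without 2D replicate 2 or 3 there were 3, and without 3D replicate 3 and 2 there were 4 and 5. The cells were plated sparsely, per the protocol in the labels, and contact between cells was not recorded.

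Transcription factors of epithelial fate showed 8 of 23 lower and 0 higher (median -0.60), again 8 with all 18 libraries and 5 without the block or without 2D replicate 2. ELF3, an epithelial ETS factor, was at 0.906, 12.2 and 17.04 CPM in 2D against 0.251, 0.699 and 1.45 CPM in 3D. The 3D libraries reached above 2D replicate 1 only in replicate 3, and the log2 fold change was -4.12 ± 0.35 (SE) (adjusted p = 3.59e-05; -3.55 and 0.0172 with all 18). GRHL3, a factor of barrier formation, was at 3.74, 21.2 and 23.1 CPM in 2D against 2.26, 2.96 and 8.21 CPM in 3D. NOTCH3, a receptor, was at 3.22, 12.0 and 6.09 against 1.38, 2.83 and 1.02 CPM, with no overlap between the cultures. ZNF750, GRHL1, SOX9 and NOTCH1 were also lower, from -3.55 (ZNF750) to -1.39 (NOTCH1). TP63, the basal epithelial factor, did not pass (0.04 ± 0.15 (SE), adjusted p = 0.886), nor did GATA3 (-0.57).

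Squamous differentiation genes were among the largest differences. Of 16 cornified envelope genes, 8 were lower and DMKN was higher (median -1.35). SPRR1B, a small proline-rich envelope precursor, was at 1.04, 8.41 and 17.3 CPM in 2D against 1.13, 1.83 and 4.49 CPM in 3D, and SPRR2D at 0.377, 4.92 and 9.36 against 0.306, 0.333 and 1.78 CPM. The fitted 2D libraries lay above 3D in both, by -2.09 ± 0.24 (SE) and -3.12 ± 0.41 (SE), and within each culture replicate 3 was highest. Small proline-rich genes are similar copies, and reads shared among them make the single values uncertain. IVL (involucrin), a main envelope protein, did not pass (-0.07). Fitted to all 18 libraries, 3 members were lower, without the block 1, and without 2D replicate 2 there were 5. Of 11 kallikrein proteases and inhibitors, KLK7, KLK5 and KLK10 were lower. KLK7, a protease of shedding skin, was at 0 CPM in 2D replicate 1, 1.52 and 2.98 CPM in replicates 2 and 3 and 0, 0 and 0.0557 CPM in 3D. KLK10 and KLK5 lost their calls with all 18 libraries (adjusted p = 0.145 and 0.0996), and KLK7 was the member still lower without 2D replicate 2, 2D replicate 3 or 3D replicate 3.

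Of 18 keratins, 5 were lower and 0 higher (median -0.58), and 3 with all 18 libraries. KRT15, a basal keratin, was at 156, 986 and 1139 CPM in 2D against 96.2, 185 and 328 CPM in 3D. The fitted 2D libraries lay above every 3D library, and the log2 fold change was -2.28 ± 0.30 (SE) (adjusted p = 0.000654, 0.0224 with all 18 libraries and 0.0634 without the block). KRT16, a keratin of activated epidermis, was at 37.2, 178 and 143 against 24.0, 54.6 and 56.8 CPM (-1.67 ± 0.27 (SE)). KRT80, KRT13 and KRT6B were also lower, and 2 keratins were lower without the block or without 2D replicate 2, and 3 without 2D replicate 3 or 3D replicate 3. KRT5 (-0.41 ± 0.20 (SE), adjusted p = 0.211) and KRT14 (0.00 ± 0.27 (SE), adjusted p = 0.999), the main basal keratin pair, did not pass.

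MUC16, a membrane mucin, was at 0.126, 4.56 and 5.55 CPM in 2D against 0.0139, 0.0333 and 0.307 CPM in 3D, lower by -5.13 ± 0.54 (SE) (adjusted p = 0.000172). MUC1, another membrane mucin, was at 442, 1083 and 583 CPM in 2D against 220.0, 364 and 167 CPM in 3D. All 3 2D libraries lay above all 3D libraries for MUC1 (-1.67 ± 0.28 (SE), adjusted p = 0.00274). FUT3, a fucosyltransferase, and SDC4, a syndecan, were the other lower members of 20 mucin and glycocalyx genes. The count was 3 with all 18 libraries or without the block and 1 without 2D replicate 2.

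Cell cycle genes were higher in 3D. Of 48 G1-S and DNA replication genes, 23 were higher and 0 lower (median 0.55), and 46 of 48 had a positive log2 fold change. Over all 18 libraries 8 were higher, without the block 0, and without 2D replicates 2 and 3 there were 2 and 4, against 16, 18 and 8 without 3D replicates 1, 2 and 3. GINS2, a subunit of the replicative helicase, was at 11.7, 5.89 and 10.8 CPM in 2D against 17.3, 15.0 and 25.0 CPM in 3D. All 3D libraries lay above all 2D libraries, and the log2 fold change was 1.30 ± 0.14 (SE) (adjusted p = 0.000192, 0.0172 with all 18 libraries and 0.139 without the block). PCNA, the replication clamp, was at 82.9, 44.0 and 74.5 CPM in 2D against 103, 74.8 and 150.2 CPM in 3D, with only 2D replicate 1 inside the 3D range. Within the pairs of replicates 1, 2 and 3, PCNA was higher in 3D by 0.31, 0.77 and 1.01 on the log2 scale (0.85 ± 0.15 (SE)). POLE2, CLSPN, RFC3 and ORC6 were higher by 1.29, 1.21, 1.01 and 1.00. The cyclins CCND1 (0.20) and CCNE1 (0.42) did not pass.

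Of 45 G2-M and mitosis genes, 15 were higher and 0 lower (median 0.94), with 44 of 45 log2 fold changes above 0, 10 higher with all 18 libraries and 1 without the block. Without 2D replicates 2 and 3 there were 3 and 5, and without 3D replicate 3 there were 6. CKS2, a small cyclin-dependent kinase subunit, was at 22.3, 10.6 and 14.2 CPM in 2D against 30.2, 27.6 and 35.8 CPM in 3D. Each 3D library lay above each 2D library (1.33 ± 0.18 (SE), adjusted p = 0.000671, 0.0192 with all 18 libraries and 0.0209 without the block). BIRC5 (survivin), which acts at the mitotic spindle, was at 94.3, 59.0 and 90.0 CPM in 2D against 121, 118 and 180.2 CPM in 3D, also without overlap (0.94 ± 0.13 (SE)). MAD2L1, of the spindle checkpoint, was at 46.1, 13.02 and 26.7 CPM in 2D against 58.5, 37.3 and 66.9 CPM in 3D, where 2D replicate 1 lay within the 3D range (1.37 ± 0.24 (SE)). MKI67, a proliferation marker, was at 109.6, 59.1 and 67.2 CPM in 2D against 88.0, 104 and 107 CPM in 3D, which missed the threshold (0.81 ± 0.45 (SE), adjusted p = 0.270), with the highest value in 2D replicate 1. ASPM (1.85), CENPF (1.76) and TTK (1.68) had larger fold changes than CKS2 and did not pass either.

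The promoters of 3 called G2-M genes hold the letters of the cell cycle homology region (CHR), TTTGAA, through which a repressor complex silences mitotic genes in resting cells. Each line gives 250 bases upstream of the RefSeq start (GRCh38.p14), 5′ to 3′ on the gene's strand, with the match on either strand in capitals. They lie at chr9:89310945-89311194 (+) for CKS2, chr1:154974431-154974680 (+) for CKS1B and chr15:59104896-59105145 (+) for CCNB2.
CKS2: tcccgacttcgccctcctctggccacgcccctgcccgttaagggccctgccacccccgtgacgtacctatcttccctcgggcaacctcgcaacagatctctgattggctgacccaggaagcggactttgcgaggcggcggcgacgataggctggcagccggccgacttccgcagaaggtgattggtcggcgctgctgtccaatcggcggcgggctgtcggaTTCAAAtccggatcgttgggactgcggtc
CKS1B: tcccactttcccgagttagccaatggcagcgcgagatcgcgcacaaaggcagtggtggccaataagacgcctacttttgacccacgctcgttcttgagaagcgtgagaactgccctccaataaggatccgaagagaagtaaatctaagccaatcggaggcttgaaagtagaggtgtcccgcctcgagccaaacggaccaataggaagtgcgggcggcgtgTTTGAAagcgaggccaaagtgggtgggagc
CCNB2: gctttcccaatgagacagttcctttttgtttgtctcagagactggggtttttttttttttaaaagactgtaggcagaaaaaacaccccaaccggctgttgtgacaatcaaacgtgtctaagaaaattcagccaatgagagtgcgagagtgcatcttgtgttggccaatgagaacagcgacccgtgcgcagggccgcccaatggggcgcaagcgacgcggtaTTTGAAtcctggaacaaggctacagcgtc
In all 3 the match begins 29 or 30 bases upstream of the start. CKS1B, the second kinase subunit, and CCNB2, a B-type cyclin, were higher by 0.76 and 1.04. The letters occurred in 4 of 12 called G2-M genes with a promoter in the table (33.3%), in 18 of 25 not called (72%) and in 8.88% of promoters of genes tested. CCAAT, in either direction, occurred in 10 of 12 called (83.3%) and 21 of 25 not called (84%), against 34.6% of genes tested. Neither motif was more frequent among the called than among the other mitotic genes.

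Replication-dependent histone genes went the other way from DNA replication genes, with 5 of 14 lower and 0 higher (median -0.69). These transcripts normally lack a poly-A tail, and the libraries were made from poly-A RNA, so their values cover only tailed transcripts. H2AC6 was at 8.15, 14.0 and 16.3 CPM in 2D against 8.23, 7.21 and 7.04 CPM in 3D (-1.09 ± 0.18 (SE)). In all 18 libraries 1 member was lower, without 2D replicate 2 also 1, and without each other library 3.

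Some proteasome genes were higher, while most genes of the ribosome and of oxidative phosphorylation did not pass. Of 32 proteasome genes, 8 were higher and 1 lower (median 0.33), with 6 higher with all 18 libraries, 0 without the block, 1 without 2D replicate 2 or 3 and 3 or 4 without a 3D library, and 15 with timepoint 3 fitted alone. PSMA3, a subunit of the 20S core, was at 196, 87.2 and 128 CPM in 2D against 235, 145 and 245 CPM in 3D (0.80 ± 0.12 (SE), adjusted p = 0.00135). The fitted 2D libraries lay below all 3D libraries, and replicate 1 lay inside the 3D range. NFE2L1, the factor that drives proteasome genes, was the member lower in 3D (-0.89 ± 0.20 (SE), adjusted p = 0.0147). NFE2L1 lost its call without the block and without 3D replicate 3, while 1 member of the list was lower with all 18 libraries. Of 78 cytosolic ribosomal proteins, RPL39 and RPL6 were higher, while 77 lay above 0 and the median was 0.53. With timepoint 3 fitted alone 65 of them were higher. At timepoint 2, 63 of the 78 were higher (9% of genes tested were higher there). Of 38 nuclear subunits of oxidative phosphorylation, UQCRB and NDUFB3 were higher (0.80 and 0.73), and 0 of 13 mitochondrially encoded genes passed, although all 13 were below 0 (median -0.58). With timepoint 3 fitted alone 18 of the nuclear subunits were higher and 12 of the mitochondrially encoded genes lower. Of 23 heat shock genes, HSPE1, HSPA8 and HSP90AA1 were higher. HSPE1, a mitochondrial chaperonin, was at 115, 64.6 and 78.6 CPM in 2D against 146, 107 and 164 CPM in 3D (0.92 ± 0.13 (SE)). The heat-inducible HSPA1A (-0.17) and DNAJB1 (-0.12) did not pass.

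Actomyosin genes were called at a share near that of all genes tested, of which 4.45% were higher and 5.3% lower. Integrin genes were not called in this fit. Of 43 filamin and actomyosin genes, MYL12B and TPM3 were higher and RHOB and MRTFA were lower (median 0.16), with 1 higher and 2 lower with all 18 libraries and 10 higher and 3 lower with timepoint 3 fitted alone. The higher calls were lost without 2D replicate 2 or 3 or 3D replicate 2 or 3. RHOB, an inducible small GTPase, was at 3.19, 11.0 and 7.11 CPM in 2D against 2.84, 3.33 and 1.77 CPM in 3D. RHOB was lower by -1.80 ± 0.23 (SE) (adjusted p = 0.000552), with 2D replicate 1 inside the 3D range. The filamin FLNA (-0.18 ± 0.15 (SE), adjusted p = 0.470), the myosin heavy chain MYH9 (-0.37 ± 0.12 (SE), adjusted p = 0.0648) and ACTB (0.21 ± 0.19 (SE), adjusted p = 0.533) did not pass. FLNA was at 1569.9, 1736 and 1688 CPM in 2D against 1341, 1907 and 1289 CPM in 3D, which overlap. Of 17 integrin and integrin-linked genes edgeR called 0, with 0 called also by the fit with all 18 libraries and 2 lower with timepoint 3 fitted alone. Of 31 YAP and TAZ pathway genes, NT5E was higher and TEAD3 and VGLL4 were lower, and the common readouts CCN1 (0.18 ± 0.29 (SE), adjusted p = 0.752) and CCN2 (-0.13 ± 0.39 (SE), adjusted p = 0.863) did not pass. NT5E lost its call with all 18 libraries, with timepoint 3 alone, without the block and without each of the 5 fitted libraries in turn. TEAD3 and VGLL4 lost theirs without the block and without 2D replicate 2 or 3, TEAD3 also with all 18 libraries and without 3D replicate 1 or 2, and VGLL4 also without 3D replicate 3. With timepoint 3 alone 5 members were lower.

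Among matrix genes the library labelled 2D replicate 1 decided several values. FN1 (fibronectin) was at 1777 CPM in that library, 366 and 226 CPM in 2D replicates 2 and 3 and 1343, 1413 and 321 CPM in 3D. The highest FN1 level was in 2D replicate 1, and the log2 fold change of 1.45 ± 0.38 (SE) (adjusted p = 0.0292) fell to 0.38 (adjusted p = 0.675) with all 18 libraries. TGFBI, a TGF-beta-induced adhesion protein, was at 4608, 1778 and 1321 CPM in 2D against 4553, 4621 and 2178 CPM in 3D. TGFBI was higher by 1.08 ± 0.17 (SE) (adjusted p = 0.00210) and lost the call with all 18 libraries (adjusted p = 0.121). POSTN (periostin) had 0 counts in 2D replicates 2 and 3, 3.03 CPM in 2D replicate 1 and 4.01, 2.31 and 0.167 CPM in 3D. Its 3D mean was 2.16 CPM. Because a count is not 1 read, no lower limit of its fold over 2D is given. With all 18 libraries POSTN did not pass (edgeR, adjusted p = 0.445). ID1 and ID3, BMP targets, were higher by 0.69 ± 0.16 (SE) and 0.87 ± 0.25 (SE) and also lost the call with all 18 (adjusted p = 0.0841 and 0.110).

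Of 22 laminin, basement membrane and hemidesmosome genes, LAMB2 and LAMA5 were lower and 0 were higher, and 4 were lower with all 18 libraries and 11 with timepoint 3 fitted alone. LAMB2, a laminin chain, was at 75.1, 144 and 78.5 CPM in 2D against 45.3, 67.7 and 26.5 CPM in 3D, with all 2D libraries above all 3D libraries (-1.22 ± 0.27 (SE), adjusted p = 0.0141). Without 2D replicate 2, 2D replicate 3 or 3D replicate 3 neither was called. Of 20 metalloproteinase and plasminogen genes, MMP7, MMP15 and MMP28 were lower, and 0 were called without 2D replicate 2, 2D replicate 3 or 3D replicate 3. In the epithelial-mesenchymal list CDH1 and TWIST1 were lower and FN1 was higher of 19, against 5.3% lower and 4.45% higher of all genes tested. This list had 1 member lower and 0 higher with all 18 libraries, and 0 called without the block. VIM (vimentin), a mesenchymal filament, was at 1229.5, 1284 and 1084 CPM in 2D against 1383, 1468 and 1253 CPM in 3D, which missed the threshold (0.13 ± 0.16 (SE), adjusted p = 0.672).

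Lysosome and autophagy genes had 8 of 32 members lower and 2 higher (median -0.24), with 3 lower and 0 higher with all 18 libraries. SQSTM1 (p62), an autophagy receptor that is also an ATF4 target, was at 593, 1769.8 and 1356 CPM in 2D against 609.9, 651 and 567 CPM in 3D. The fitted 2D libraries lay above every 3D library (-1.40 ± 0.17 (SE), adjusted p = 0.000465), and replicate 1 lay within the 3D range. CTSD, a lysosomal protease, was at 906, 2020.0 and 1423 CPM in 2D against 631, 922 and 677 CPM in 3D (-1.16 ± 0.18 (SE)). ULK1, the kinase that starts autophagy, and TFEB, a lysosomal transcription factor, were lower by -1.11 ± 0.19 (SE) and -0.64 ± 0.15 (SE). LAMP1 (-0.38), CTSB (-0.17) and MAP1LC3B (-0.24) did not pass. Without the block or 2D replicate 2, 2 members were lower, 3 without 2D replicate 3, 4 without 3D replicate 3 and 5 without 3D replicate 1 or 2.

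Several metabolic and hormone-responsive lists held a few lower members. Of 31 glycolysis and hypoxia genes, ADM, SLC2A1, VEGFA and MXI1 were lower (2 without the block or 2D replicate 2 and 1 without 2D replicate 3), while LDHA (0.42), PGK1 (0.29) and CA9 (0.31) did not pass. SLC2A1, the GLUT1 glucose transporter, was at 48.6, 95.2 and 79.0 CPM in 2D against 32.9, 42.9 and 35.9 CPM in 3D, with no overlap in any library (-1.16 ± 0.19 (SE), adjusted p = 0.00257). Of 18 glucocorticoid-responsive genes 7 were lower, 4 with all 18 libraries, 1 without the block, 2 without 2D replicate 2 and 3 without 2D replicate 3 or 3D replicate 3. TSC22D3 (GILZ) was at 141, 325 and 242 CPM in 2D against 126, 171 and 123 CPM in 3D (-1.004 ± 0.18 (SE)), whereas FKBP5, another target of the receptor, was at -0.09 and did not pass. Of 20 clock genes 5 were lower, among them PER1, PER2, NR1D1 and NR1D2, 2 with all 18 libraries, 0 without the block and 1 to 4 with 1 library left out (1 without 2D replicate 3). ALDH3A1, an aldehyde dehydrogenase of the aryl hydrocarbon receptor battery, was at 183, 752 and 689 CPM in 2D against 136, 191 and 319 CPM in 3D (-1.73 ± 0.21 (SE), adjusted p = 0.000463). CYP1A1, the classic target of that receptor, did not pass (-1.57). TXN (thioredoxin) was higher by 0.90 ± 0.14 (SE) and OSGIN1 lower by -1.07 ± 0.18 (SE) among 26 NRF2 and glutathione genes. Of 35 sterol and fatty acid genes, ACAT2 and IDI1 were higher and TM7SF2 lower, and HMGCS1 (0.53 ± 0.25 (SE), adjusted p = 0.195) did not pass. Such counts are near the shares of all genes tested (4.45% higher and 5.3% lower). In this list 1 member was higher and 0 lower with all 18 libraries, and 0 higher and 1 lower without the block.

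Genes were ranked by fold among those called, without overlap in the fitted libraries and averaging 50 counts or more. The largest higher genes by this ranking were low in abundance and depended on the left-out library. After POSTN they were ZNF107, LINC02777, EVI2A, the unnamed gene ENSG00000265118, CENPE, SUCLG2-DT, CHRNA9, NOSTRIN and CENPK, with log2 fold changes from 3.52 (ZNF107) to 2.07 (CENPK). ZNF107, of the zinc finger class, had 1.82 CPM in 2D replicate 1, 0.192 and 0.107 CPM in replicates 2 and 3 and 1.98, 1.66 and 2.05 CPM in 3D. CENPE, a mitotic kinesin, was at 18.7 CPM in 2D replicate 1, 1.02 and 2.38 CPM in the other 2D libraries and 19.4, 7.34 and 9.77 CPM in 3D. In both, 2D replicate 1 lay within the 3D range. Only SUCLG2-DT and NOSTRIN of these 10 passed with all 18 libraries (adjusted p = 0.0332 and 0.0240). EVI2A and ENSG00000265118 overlap on the same strand inside NF1, so their reads cannot be assigned with certainty. The largest lower genes by the same ranking were KLK7, MUC16, ATF3, ADM2, ELF3, TINCR, CD7, CHAC1, DUSP8 and ATP6V1B1, and all 10 passed with all 18 libraries (adjusted p = 0.0172 for MUC16 to 0.0322 for KLK7). TINCR, a transcript of epidermal differentiation, was at 0.164, 1.92 and 2.23 CPM in 2D against 0.0418, 0.0998 and 0.181 CPM in 3D.

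Set against the earlier harvests, the calls at timepoint 3 overlapped with those at timepoint 2, and none were made at timepoint 1. At timepoint 2, 2949 genes were called (15.9% of those tested; 9% higher and 6.86% lower), and 1084 were called in the same direction at timepoints 2 and 3. These are 59.8% of the calls of timepoint 3 and 36.8% of those of timepoint 2, and 1 gene was called in opposite directions. At timepoint 1 edgeR called 0 genes, with 388 at an unadjusted p under 0.05. The difference at timepoint 3 minus that at timepoint 1 passed for 290 genes, 100 positive (0.538%) and 190 negative (1.02%). Without the block it passed for 34 genes, and with all 18 libraries edgeR called 0, with 1965 at an unadjusted p under 0.05. Leaving out 1 library gave 15 (2D replicate 2) to 176 (3D replicate 1). Of the ATF4 and CHOP targets, 19 of 35 passed as negative. The difference at timepoint 3 minus that at timepoint 2 passed for 0 genes with edgeR, where 1399 had an unadjusted p under 0.05 and the smallest adjusted p was 0.161, and for 41 genes with DESeq2.

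At timepoint 1, ATF3 was at 12.6 ± 5.39 CPM (SD, n = 3) in 2D against 16.1 ± 7.20 CPM in 3D, and at 26.1 ± 4.27 CPM and 6.51 ± 1.85 CPM at timepoint 2. At timepoint 3 the fitted 2D libraries averaged 75.9 ± 6.08 CPM (SD, n = 2; 51.6 ± 42.4 CPM over all 3) and the 3D libraries 3.52 ± 0.226 CPM (n = 3). DDIT3 went from 7.36 ± 0.639 to 16.8 ± 0.478 and 36.5 ± 3.74 CPM (n = 3, 3 and 2) in 2D and from 6.53 ± 1.52 to 10.6 ± 1.58 and 8.73 ± 0.931 CPM in 3D. For both genes the means of the fitted 2D libraries were higher at each later harvest, and 3D showed no such climb. By contrast, 2D replicate 1 fell from timepoint 2 to 3, from 21.3 to 2.94 CPM for ATF3 and from 16.9 to 9.31 CPM for DDIT3. ELF3 had the opposite course in 2D, with 81.5 ± 38.3, 19.0 ± 4.34 and 14.6 ± 3.43 CPM, and 80.0 ± 20.6, 1.49 ± 0.701 and 0.800 ± 0.606 CPM in 3D. CLDN4 likewise stood at 67.0 ± 41.1, 7.34 ± 3.00 and 5.82 ± 3.68 CPM in 2D against 51.1 ± 28.3, 0.951 ± 0.847 and 0.505 ± 0.293 CPM in 3D. The means of ELF3 and CLDN4 were thus lower in both cultures at the later harvests, and lowest in 3D. CKS2 stood at like levels in both cultures at timepoint 1 (10.9 ± 1.56 CPM in 2D against 10.7 ± 1.64 CPM in 3D) and at 12.4 ± 2.54 CPM in 2D against 31.2 ± 4.21 CPM in 3D at timepoint 3.

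**Figure D5:**
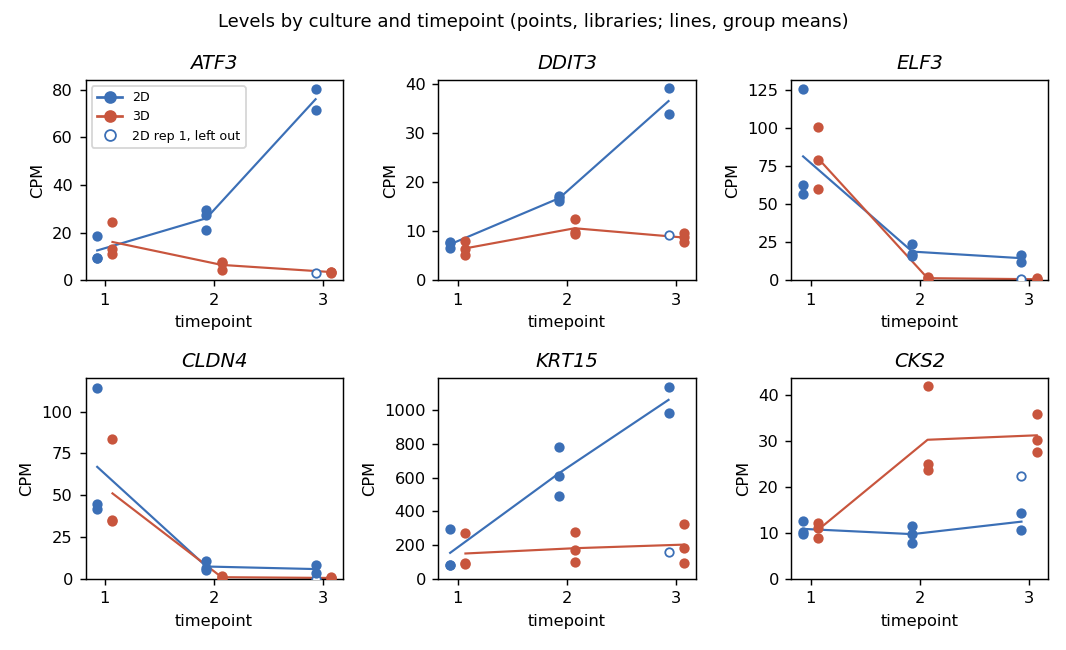
CPM of 6 genes by timepoint, points for single libraries and lines for group means, 2D in blue, 3D in red, with 2D timepoint 3 replicate 1 open and outside the mean. The 2D means of ATF3, DDIT3 and KRT15 climb (the highest ATF3 library reaches 80.2 CPM), while 2D replicate 1 falls from timepoint 2 to 3 in all of them. In 3D, ATF3 and DDIT3 stay low, and KRT15 rises less than in the fitted 2D libraries (to 328 CPM in replicate 3). ELF3 and CLDN4 drop in both, and CKS2 is higher in 3D from timepoint 2.

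The fit of the 6 libraries of timepoint 3 alone, which includes 2D replicate 1 and takes its spread from these libraries only, called 2180 of 16613 genes (13.1%). Of these 1093 were higher in 3D (6.58%) and 1087 lower (6.54%). Only 1102 genes were called by both this fit and that of 17 libraries, all in the same direction. Beside the lists given above, it called more G2-M and mitosis genes higher (26 against 15 with 17 libraries) and more sterol and fatty acid genes (5 against 1) and basal epithelial markers (5 against 1) lower. It called fewer G1-S and replication genes higher (12 against 23). Fewer were lower among the p53 targets (5 against 10) and the interferon and MHC class I genes (6 against 10). So it was for the list of FOS, JUN and small MAF genes (5 against 9) and the other immediate early genes (5 against 8). The same held for cornified envelope genes (2 against 8), tight junction genes (5 against 8), MAP kinase feedback genes (2 against 5) and clock genes (2 against 5). It also held for serine, asparagine and one-carbon enzymes (1 against 5), cytosolic tRNA synthetases (0 against 4) and replication-dependent histone genes (0 against 5). The ATF4 and CHOP targets had 18 lower against 21.

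The authors' deposited table for timepoint 3 lists 13677 genes, of which 294 have an adjusted p under 0.05, 36 higher and 258 lower in 3D. All 294 were called here in the same direction. Both results come from libraries of this same series, so the overlap is not separate evidence. Of the 187 genes picked by the naming rule, 170 were called at timepoint 3. The call held without each timepoint 3 library in turn for 69 of them, and for 47 it held also without the block and with all 18 libraries. Those 47 include ATF3, DDIT3, CHAC1, ADM2, PPP1R15A, ASNS, FOSB, FOS, KLF4, CLDN1, CLDN4, CLDN7, ELF3, GRHL3, NOTCH3, MUC16, SQSTM1, CKS2 and HSPE1, of which CKS2 and HSPE1 were the members higher in 3D.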

How the data were processed

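Poly-A RNA of 18 MCF10A libraries was sequenced as 50 bp single reads. The deposited count table holds whole-number counts for 60662 genes with no normalisation, per the file headers, and 0 sample columns were left unused. The submitters' processing notes name STAR 2.7.1a, HOMER, edgeR, limma and hg38, with no role or order; the counting method, annotation and strand setting are not stated there. Counts sum to 4.73 to 5.73 times the header totals, so CPM is not compared between genes. The authors' deposited log2 CPM table (13677 genes, 17 libraries) served an alternative, and the deposited log2 fold changes and adjusted p-values of timepoint 3 were copied as the authors' own. The scores in the deposited comparison tables, limma's moderated t and log odds per the file headers, were not used.

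Counts of 17 libraries were filtered with filterByExpr (18592 genes), scaled by TMM and tested with edgeR 4.0.16 (R 4.3.3, quasi-likelihood F test, Benjamini-Hochberg adjusted p under 0.05) with 6 groups and the replicate number as a block. The numbers pair libraries, because each carries 1 date in all groups. The deviations of same-numbered libraries from their group means correlated at 0.416 to 0.786 in 8 pairs. The values of timepoint 3 (0.506 and 0.434) are not separate, because the deviations of the 2 fitted 2D libraries mirror each other. No such correlation was taken between differently numbered libraries. The standard error is the log2 fold change divided by the square root of F. CPM values use the TMM scale. Ensembl IDs were matched to current symbols for 60306 genes. Alternatives were DESeq2 1.42.0, limma 3.58.1 with voom, RLE and upper-quartile scaling, other filters, no block, all 18 libraries, timepoint 3 alone and leaving out each library. The test was run on simulated counts of 18592 genes. In 3D at timepoint 3, 67, 67 and 66 of them changed by folds of 1.5, 2 and 4. Every gene had the same spread and an additive replicate effect on the log2 scale. The folds were found for 4.5%, 32.8% and 92.4% of changed genes, with 0 wrong directions and 1 false call. The data hold more called genes and less even libraries, so these shares and the false call do not carry over to them.

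The comparison, the 55 gene lists and the naming rule were chosen with earlier results of these data known. The rule took at most 10 called genes in each direction, strongest by fold (no overlap in CPM, mean count 50 or more), up to 4 called members with the smallest p per list, 20 fixed genes, and up to 5 genes per interaction. Other list members, among them those that did not pass, were named after their values were seen. Lists share members, and some members are not reported here. Promoters are from RefSeq (GRCh38.p14), which held 12230 of the genes tested.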

Additional observations from a re-analysis of the deposited data

Results flagged for a closer look

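For 73 of the named genes the difference between 3D and 2D at timepoint 3 differed from that at timepoint 1 by the interaction term (edgeR quasi-likelihood F test, Benjamini-Hochberg over 18592 genes). There were 187 named genes, and of all 18592 genes tested 290 passed this term (1.56%). The naming rule picked genes mainly by their fold or p at timepoint 3, and some for this same interaction. A high share among the named genes therefore follows in part from how they were picked, and no conclusion is drawn from it. The values below are the log2 fold change at timepoint 3 minus that at timepoint 1. Both use the fit of 17 libraries with the date block, and with all 18 libraries edgeR called 0 such genes, with 1965 at an unadjusted p under 0.05.

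Among targets of ATF4 and CHOP or enzymes of amino acid supply the values were ATF3 -4.65, ADM2 -4.02, CHAC1 -3.74, GDF15 -2.45, DDIT3 -1.92, SLC6A9 -1.93, PPP1R15A -1.93, BBC3 -1.82, PCK2 -1.60, ASNS -1.59, SESN2 -1.55, SQSTM1 -1.40, VEGFA -1.28, HERPUD1 -0.85 and GPT2 -0.75. Each of these was lower in 3D at timepoint 3, and for ATF3 the log2 fold change went from 0.36 at timepoint 1 to -4.29 at timepoint 3. In the FOS and JUN family, other immediate early and feedback genes they were FOSB -3.73, FOS -1.70, JUND -1.60, KLF4 -2.67, KLF2 -2.82, KLF6 -1.14, NR4A1 -1.44, DUSP8 -3.00, DUSP10 -2.24, NRG2 -2.63 and RHOB -2.15. FOSB went from 0.68 at timepoint 1 to -3.05 at timepoint 3. For junction, fate, keratin and other squamous genes they were ELF3 -4.18, NOTCH3 -2.08, GRHL3 -2.05, SOX9 -1.38, CLDN1 -1.80, CLDN4 -2.85, CLDN7 -1.28, TJP3 -2.92, PPL -1.41, EVPL -0.94, PERP -0.69, KRT15 -2.29, KRT16 -1.87, KRT80 -2.54, SPRR2D -2.73, TINCR -3.70, MUC16 -4.29 and KLK5 -7.96. The value of KLK5 rests on very low counts. For death, p53, immune and lysosomal genes they were CDKN1A -1.06, HRK -1.51, HLA-B -0.77, IRF9 -0.85, IL1RN -1.69, TNFAIP2 -1.21, CD14 -1.32, CTSD -1.11, ULK1 -1.16 and ATP6V1B1 -3.65. For metabolic, hormone-responsive and remaining genes they were ALDH3A1 -1.63, SLC2A1 -1.16, ADM -1.59, PER1 -0.91, PER2 -0.92, BMP2 -1.51, H2AC6 -1.05 and ZNF598 -0.83. The genes with a positive value were BCL2L12 0.77, BIRC5 0.92, CDC45 0.82, CKS2 1.37, EVI2A 3.25, GINS2 1.30, HSPE1 1.02, PTTG1 1.02, RFC2 0.67, TGFBI 1.07 and TXN 0.85. CKS2 went from -0.04 at timepoint 1 to 1.33 at timepoint 3.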

How the results depend on the processing

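The calls at timepoint 3 kept their direction in the named genes that were called, under each alternative that gave them a value, while TP63, CCN2, CCN1, EGFR and FLNA, which did not pass, changed sign under some. The number of calls depended on the libraries and on the pairing. The fit reported here called 1813 genes (827 higher and 986 lower). Without the replicate block it called 278 (43 and 235), with all 18 libraries and the block 1052 (449 and 603), with all 18 and no block 0 (0 and 0; 1942 at an unadjusted p under 0.05), and with DESeq2 2841 (1353 and 1488). Leaving out 1 library gave 321 to 1241 (110 to 561 higher and 211 to 680 lower). For the difference at timepoint 3 minus that at timepoint 1, which passed for 290 genes (100 positive and 190 negative), no block gave 34 (1 and 33), all 18 libraries with the block 0 (0 and 0), DESeq2 875 (360 and 515) and leaving out 1 library 15 to 176 (0 to 57 and 15 to 119). For the difference minus that at timepoint 2, edgeR called 0 and DESeq2 41 (8 and 33). The higher genes were 45.6% of calls in that fit, 15.5% without the block and 36.9% with upper-quartile scaling, which moved the median log2 fold change by -0.04. The other fits, with limma-voom, RLE scaling, no filter, a stricter filter, timepoint 3 alone and the authors' log2 CPM, called 1727 to 2180 genes, and with timepoint 3 alone 1102 of its calls were those reported here. Of 170 named genes called, 72 stayed called without the block, 108 with all 18 libraries, 112 with timepoint 3 alone, 77 without 2D replicate 2 and 92 without 2D replicate 3. With either of these 2 left out, 2D rests on 1 library, which is assumed to vary like the other groups. In the simulation 4.5% of 1.5-fold and 32.8% of 2-fold changes were found. Far fewer genes were changed there than were called here, so these shares do not carry over to the data. A gene that did not pass may still differ. The causes of these shifts were not tested.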

Other observations

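Outside the groups described above, 3229 long non-coding RNA genes were tested and 59 were higher in 3D (1.83%) and 69 lower (2.14%), against 764 higher (5.39%) and 903 lower (6.37%) of 14176 protein-coding genes. Of 404 genes with a ZNF symbol, most of them zinc finger genes, 7 were higher and 17 lower (median -0.07), with 1 higher and 13 lower with all 18 libraries and 0 higher and 1 lower without 2D replicate 2. ZNF598, a ubiquitin ligase that senses collided ribosomes, was lower by -0.79 ± 0.11 (SE) on the log2 scale (adjusted p = 0.000947) and held its call without each library in turn. CD14, listed as an immune marker, was at 9.42, 19.4 and 13.9 CPM in 2D and 6.70, 7.64 and 5.53 CPM in 3D, lower by -1.37 ± 0.19 (SE), while CD68 of the same marker list did not pass (-0.04) and CD3E and LYZ were at 0. Of 16 S100 and annexin genes, S100A3 and S100A10 were higher (1 with all 18 libraries, 7 with timepoint 3 fitted alone). Of 30 ribosome biogenesis genes 4 were higher, led by NPM1 (0.64 ± 0.14 (SE)), and RRP12 was lower; 0 were called without the block or without 2D replicate 2.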
